A study of Mus musculus with 2 samples.

Results

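Chromatin accessibility around Rora and Rorb, which encode nuclear receptors of the retinoic acid receptor-related orphan receptor (ROR) family, was described in mouse thymus. The genes were chosen by name, and each was examined over its GENCODE M21 gene body plus 50 kb on each side, on mm10. They are 2 of the 21755 protein-coding genes of that annotation. Accessibility was measured by DNase-seq, in which the enzyme DNase I cuts chromatin preferentially where it is open, in thymus tissue of 2 female B6CASTF1/J mice, hybrids of a laboratory strain and a wild-derived strain, aged 36 days. Each mouse gave 1 library, and the labels number them biological replicates 1 and 2, here mouse 1 and mouse 2. They name a different animal and biosample for each, under 1 common donor identifier. The mice form 1 group with no treatment, so nothing was tested between conditions, and values are given per mouse and as mean ± SD (n = 2). The thymus was taken whole. A low value from a site weakly open in most cells and one from a site strongly open in a small share of cells therefore cannot be told apart.

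ROR proteins bind DNA as monomers, at a core of AGGTCA that follows a short stretch rich in A and T, and mostly activate the genes they bind. The REV-ERB receptors, encoded by Nr1d1 and Nr1d2, bind the same elements and repress, and this competition drives part of the circadian clock. Rora is known for its role in Purkinje cells of the cerebellum and in innate lymphoid and T helper cells, and Rorb for its role in the retina and other neurons.

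Rora, at chr9:68653786-69388246 on the plus strand, had many accessible sites, and Rorb, at chr19:18930605-19111196 on the minus strand, had 1. A peak is an interval of the shorter, stricter peak list of a library, and its signal is the depth-normalised height that the authors deposited. The Rora window of 834.5 kb held 31 peaks in mouse 1 and 27 in mouse 2 (29 ± 2.83, SD, n = 2). The Rorb window of 280.6 kb held 1 peak in each mouse. Per 100 kb, Rora had 3.715 peaks in mouse 1 and 3.236 in mouse 2 (3.475 ± 0.339), and Rorb 0.3564 in both. The difference, Rora minus Rorb, was 3.36 in mouse 1 and 2.88 in mouse 2 (3.12 ± 0.339), larger than its spread between the mice.

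Gene length bears on how these values compare with other genes. Over all 21755 protein-coding genes the median was 4.541 peaks per 100 kb, and over the 2489 genes with a body of at least 100 kb it was 2.315. The Rora density exceeded that of 41.3% of all genes and of 64.5% of the long genes, while its number of peaks exceeded that of 97.1% and 96.3%. Rorb exceeded 15.6% of all genes and 16.4% of the long genes in density. Rora was therefore rich in sites by number and near the middle of all genes per unit length, and Rorb was low on both.

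**Figure D1:**
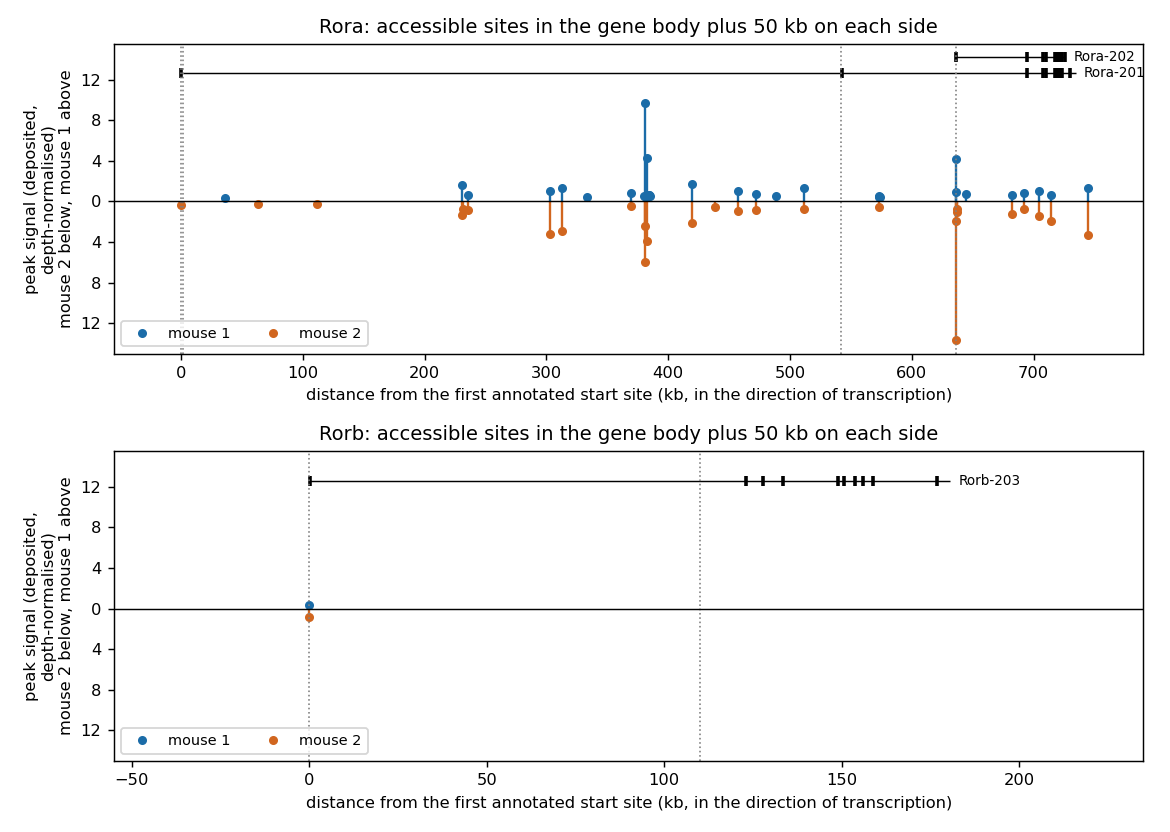
Peaks of each mouse in the Rora window (top) and the Rorb window (bottom), by distance in kb from the first annotated start site, with peak signal upwards for mouse 1 and downwards for mouse 2. Black bars are exons and dotted lines are the start-site groups. Rora has 31 and 27 peaks, the strongest of them in a cluster about 381.0 kb downstream and at the start site 635.9 kb downstream, and Rorb has 1 peak in each mouse.

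Start sites within 500 bp of each other were joined, which gave Rora 4 separate promoters and Rorb 2. A promoter was counted as open in a mouse when a peak lay within 1000 bp of a start site. The coordinates of a peak found in both mice span the intervals of both, and footprints were counted over that span. One of the 4 Rora promoters and 1 of the 2 Rorb promoters was open in both mice. Of all 52275 promoter groups of protein-coding genes, 30.7% were open in both mice, and 56.5% of the 21755 genes had at least 1 such promoter. Both genes are thus among that 56.5%. They differed in which promoter was open, the downstream one for Rora and the first one for Rorb.

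The first Rora promoter starts at chr9:68653786 and serves the long coding transcript Rora-201. In mouse 1 it had no peak in either peak list and no run of significant cutting. In mouse 2 it had 1 weak peak, chr9:68653923-68653983, with a signal of 0.3577, above 6.0% of the peaks of that library. The lowest false discovery rate (FDR) of the local cut rate there was 0.000174. So nothing was listed here in mouse 1, and mouse 2 had little. This peak has 73.8% GC, and peaks rich in GC were generally lower in mouse 1. The part of this in the difference was not tested. The promoter is rich in CpG, with 28 CpG dinucleotides in the 300 bases from 250 before to 50 after the start, an observed over expected ratio of 1.05. The 250 bases before the start are shown as the promoter that was not open in both mice (chr9:68653536-68653785, plus strand). In this and the other sequences capitals mark bases that lay in a footprint, a short stretch protected from cutting, in both mice, and this one has none. The letters are those of the GRCm38 reference, from the laboratory strain. Alleles of the wild-derived strain were not examined.
Rora first promoter: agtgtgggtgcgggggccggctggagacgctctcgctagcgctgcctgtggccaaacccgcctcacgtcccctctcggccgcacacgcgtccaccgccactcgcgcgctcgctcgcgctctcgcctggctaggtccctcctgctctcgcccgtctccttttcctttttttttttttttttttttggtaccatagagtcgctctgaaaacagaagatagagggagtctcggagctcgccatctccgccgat

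The promoters of Rora-205, at chr9:68655303, and of Rora-203, at chr9:69195541, had no peak, no run of significant cutting and no footprint in either mouse. Both transcripts are annotated with no coding sequence.

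The downstream Rora promoter, at chr9:69289682 and 635.9 kb after the first start, was strongly open in both mice. It serves Rora-202, a shorter coding transcript that begins in intron 2 of Rora-201 and shares its later exons. Its main peak, chr9:69289601-69289980, had a signal of 4.205 in mouse 1 and 13.63 in mouse 2. These values exceeded 83.9% and 92.0% of the peaks of their library, and the lowest FDR was 1.28e-36 and 2.66e-103. Both mice were high here, mouse 2 the more so, with a log2 ratio of mouse 2 over mouse 1 of 1.70. The peak covers the start site and much of the first exon, which is 5′ untranslated there. A second peak, chr9:69290161-69290420, also lay in both mice, at 0.9317 and 1.94, and another, chr9:69290501-69290912, at 1.053 in mouse 2 alone.

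Footprints at the downstream promoter lay in like places in both mice. The main peak held 7 footprints in each mouse, and 6 of the 7 overlapped one of the other mouse. Over all footprints inside peaks, 63.9% in mouse 1 and 54.1% in mouse 2 did. The 250 bases before the start (chr9:69289432-69289681, plus strand) hold 28 bases in footprints of both mice, in 2 runs, and they have 5 CpG.
Rora downstream promoter: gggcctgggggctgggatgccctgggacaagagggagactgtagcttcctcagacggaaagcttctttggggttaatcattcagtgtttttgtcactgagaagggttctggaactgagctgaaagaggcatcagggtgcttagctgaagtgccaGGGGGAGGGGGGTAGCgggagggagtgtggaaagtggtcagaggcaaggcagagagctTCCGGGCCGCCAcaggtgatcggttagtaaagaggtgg
The 4 footprints shared after the start are shown with their flanking bases, since most of the protected sequence lies there. They are at chr9:69289702-69289726, 69289758-69289786, 69289850-69289864 and 69289904-69289918.
Run 1: ccCTGGGAGCGCAGGGGGGCAGCac
Run 2: ccCGCGGGGGCGGAGCGCGGCGCCCAGgc
Run 3: gcGGCGGCCGTGAtg
Run 4: tcTCGGCGGGCGGgc
Runs 2 and 4 each hold GGGCGG, the letters of the SP/KLF motif, at position 8 counted from the first base shown. SP and KLF proteins are widely expressed factors that bind GC-rich promoters. These letters occur on either strand in 35.7% of 32851 RefSeq promoters of 300 bases, so a match is common.

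**Figure D2:**
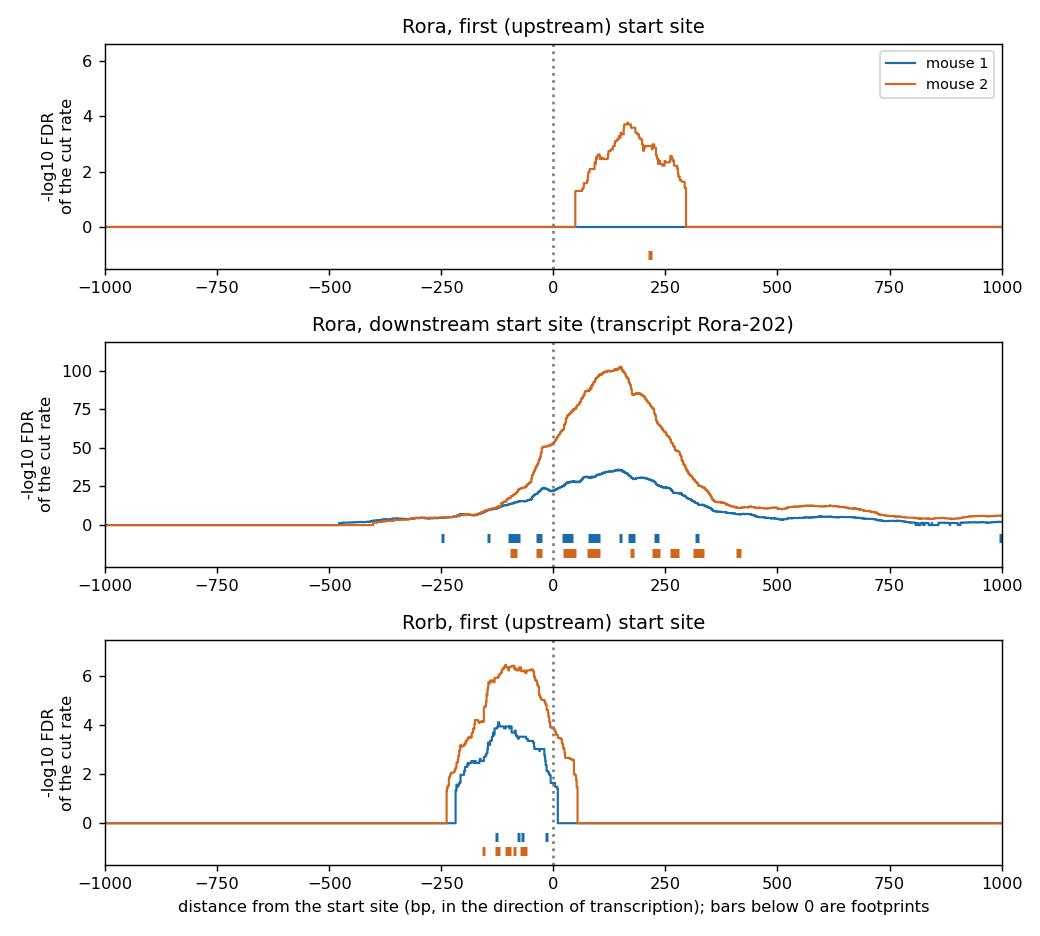
Minus log10 of the FDR of the cut rate, within 1000 bp of the first Rora start, the downstream Rora start and the first Rorb start, for both mice, with footprints as bars under the axis. A value of 0 means that no run below an FDR of 0.05 was listed, and the vertical scales differ between panels. The first Rora start has a run in mouse 2 only, while the other start sites have one in both mice.

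A first promoter not open in both mice, together with a later one open in both, was seen in 929 of 13078 protein-coding genes with several promoter groups (7.1%). Rora is 1 of these 929.

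Peaks of both mice were joined where they overlapped, which gave 39 sites in the Rora window, numbered from 1 in the direction of transcription. Of these, 18 were in both mice, 12 in mouse 1 only and 9 in mouse 2 only. By position in Rora-201, 25 sites lay in intron 1, 7 in intron 2, 1 in intron 3, where the antisense gene Gm15511 also lies, and 1 in intron 5. Another 4 lay at promoters of Rora and 1 at the promoter of Ice2, the neighbouring gene downstream. Intron 1 alone is 542.1 kb long, and the widest stretch with no site, 118.7 kb (chr9:68765822-68884481), lies inside it. Of the 39 sites, 17 held no repeat-masked base and 1 was masked over more than 50% of its length. The like shares over all peaks were not counted, so these 2 counts are descriptions.

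The strongest intronic site was site 14, chr9:69034681-69034920, in intron 1 and 381.0 kb after the first start. The peak reached 9.7 in mouse 1 and 5.94 in mouse 2 (7.82 ± 2.66), above 95.1% and 82.7% of the peaks of their library. The lowest FDR was 4.5e-149 and 2.86e-37. In mouse 1 this was the strongest of all Rora sites, above the downstream promoter, and in mouse 2 it came after that promoter. It held 7 footprints in mouse 1 and 5 in mouse 2, of which 4 and 5 overlapped one of the other mouse. Over all footprints inside peaks, 63.9% and 54.1% did. The whole site is shown because it was the strongest intronic one in both mice (plus strand).
Rora site 14: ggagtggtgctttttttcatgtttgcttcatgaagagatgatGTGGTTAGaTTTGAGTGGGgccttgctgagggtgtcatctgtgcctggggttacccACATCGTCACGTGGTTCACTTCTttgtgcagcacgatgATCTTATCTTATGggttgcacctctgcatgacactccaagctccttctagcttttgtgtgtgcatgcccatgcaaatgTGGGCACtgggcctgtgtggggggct
Counted from its first base, this sequence holds TGTGGT, the RUNX motif, at position 42, and the reverse complement of AGATAA, the GATA motif, at position 140. RUNX and GATA factors are central to T cell development. All 6 bases of the GATA match and 5 of the 6 of the RUNX match lay in footprints of both mice. All 6 bases of CACGTG at position 106 did too. This is the E-box of basic helix-loop-helix factors such as those of the clock, a motif added after the sequence was seen. It is in 2 of the 18 shared Rora sites, this one and site 39 at the promoter of the neighbouring gene Ice2. Over all shared pairs it is in 6.59%.

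Site 16, chr9:69036401-69036660, came next among the intronic sites at 4.257 in mouse 1 and 3.894 in mouse 2 (4.075 ± 0.256), a difference smaller than that of site 14. It held 6 and 5 footprints, 4 of each shared, beside 63.9% and 54.1% of all footprints inside peaks. The site is shown as the second of the cluster (plus strand).
Rora site 16: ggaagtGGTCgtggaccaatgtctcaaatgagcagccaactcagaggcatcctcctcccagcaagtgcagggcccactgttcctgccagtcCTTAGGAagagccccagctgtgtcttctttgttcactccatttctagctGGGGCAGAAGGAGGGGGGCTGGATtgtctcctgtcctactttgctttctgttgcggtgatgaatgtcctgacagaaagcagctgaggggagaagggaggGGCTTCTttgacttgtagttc
This sequence holds GGAAGT (ETS) at position 1, CAGCTG (an E-box) at positions 106 and 219, and CTTTGA (TCF/LEF) at position 245. Only 2 bases of the last match, and none of the others, lay in footprints of both mice.

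Sites 14 and 16 belong to a cluster. Within 5 kb of the middle of site 14, mouse 1 had 7 peaks and 34 footprints, and mouse 2 had 3 peaks and 21 footprints. Site 13, chr9:69034241-69034580, was the strongest Rora peak found in mouse 2 alone, at 2.438. Mouse 1 listed no peak there, yet its cut rate reached an FDR of 3.43e-44 in the same interval, where its run of cutting extends from site 14. A site listed in 1 mouse can thus show strong cutting in the other.

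**Figure D3:**
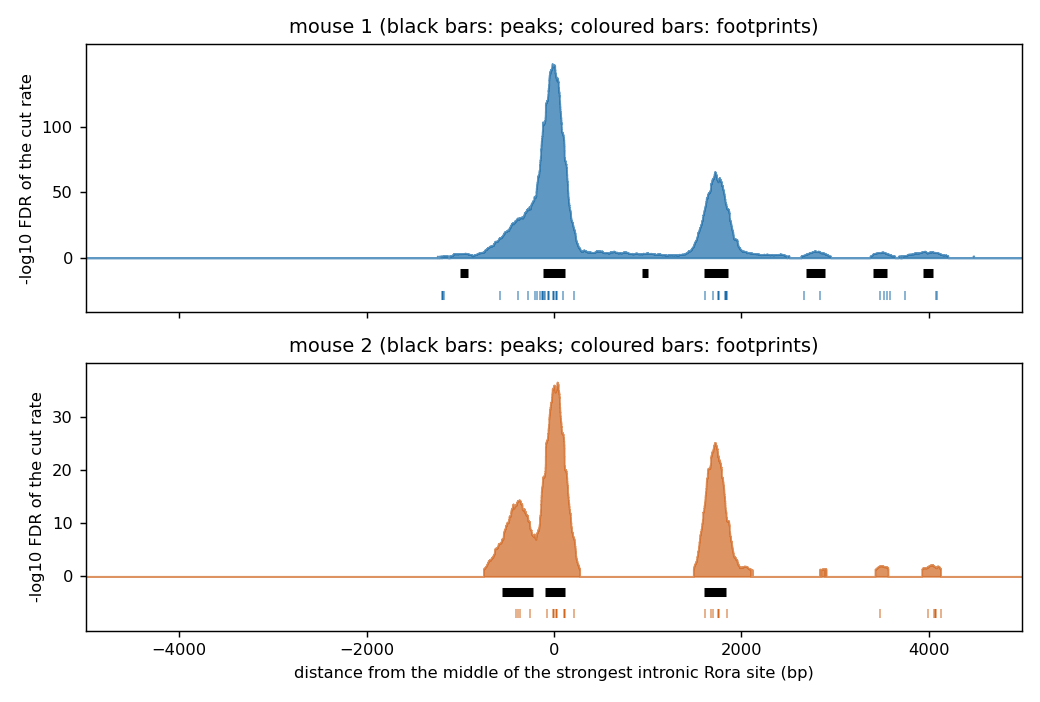
Minus log10 of the FDR of the cut rate within 5 kb of the middle of the strongest intronic Rora site, for mouse 1 (top) and mouse 2 (bottom), with peaks as black bars and footprints as coloured bars; the vertical scales differ. Both mice peak at the centre and again about 1.7 kb downstream, with 7 peaks in mouse 1 and 3 in mouse 2.

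The other intronic sites by mean signal were well below these. Site 9, chr9:68966581-68966780, had 1.315 and 2.942 (2.128 ± 1.15). Site 8, chr9:68957021-68957220, had 1.008 and 3.244 (2.126 ± 1.58). Both were higher in mouse 2. Site 20, chr9:69073341-69073540, had 1.685 and 2.186 (1.936 ± 0.355). All 3 lie in intron 1, so the 5 strongest intronic sites of Rora shared by the mice were in its first intron. That intron is 542.1 kb long and holds 25 of the 39 sites.

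The remaining 10 shared intronic sites were weaker still. In the upstream part of intron 1, site 5, chr9:68884481-68884720, had 1.634 in mouse 1 and 1.365 in mouse 2, and site 7, chr9:68888881-68889149, had 0.6062 and 0.8565. They are the first shared sites after the 118.7 kb gap. Site 26, chr9:69165181-69165380, near the end of that intron, had 1.353 and 0.7104, the shared site most in favour of mouse 1. Beyond the downstream promoter, site 35, chr9:69336201-69336400, had 0.6637 and 1.224, site 36, chr9:69345681-69345890, had 0.7849 and 0.7104, and site 37, chr9:69357921-69358140, had 0.9764 and 1.496. These 3 lie in introns 2 and 3 and so inside the transcribed part of Rora-202 too. Their footprints in mouse 1 numbered 1, 2 and 2, each overlapping one of mouse 2. In mouse 2 they numbered 1, 2 and 5, of which 1, 2 and 3 overlapped one of mouse 1. Over all footprints inside peaks, 63.9% of mouse 1 and 54.1% of mouse 2 overlapped one of the other mouse.

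The longer list raised the Rora count to 42 peaks in mouse 1 and 44 in mouse 2. Among the intervals it added outside the 39 sites, 3 pairs overlapped between the mice. They were in intron 1 from chr9:68961601 (0.3893 in mouse 1 and 0.3829 in mouse 2) and from chr9:69075047 (0.3893 and 0.3879), and in intron 2 from chr9:69296541 (0.6254 and 0.5592). The other 6 of the 9 such intervals of mouse 1, and the other 8 of the 11 of mouse 2, had no counterpart in the longer list of the other mouse. The like share over all chromosomes was not counted, so these counts are descriptions and do not set Rora apart.

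The 18 shared Rora sites, set over the peaks, gave 58.1% for mouse 1 (18 of 31) and 66.7% for mouse 2 (18 of 27). Shared site 39, at the Ice2 promoter, held 2 peaks of mouse 1, so the share of mouse 1 peaks was slightly higher. Over all peaks the shares were 80.8% of the 59484 of mouse 1 and 66.1% of the 72913 of mouse 2. The Rora share was thus lower than that of all peaks for mouse 1 and close to it for mouse 2. Rora peaks also had a lower median signal than all peaks, 0.753 beside 1.23 in mouse 1 and 1.05 beside 1.45 in mouse 2. The part of signal in these shares was not tested. The 12 sites of mouse 1 alone were weak, with signals of 0.3 to 0.753 (median 0.501), and 7 of them touched a run of significant cutting in mouse 2. The strongest of these was site 34, chr9:69298205-69298313, at 0.753, with no run in mouse 2. The 9 sites of mouse 2 alone had signals of 0.267 to 2.44 (median 0.72), and 6 of them touched a run in mouse 1. How often peaks of 1 mouse alone touch such a run over all chromosomes was not counted, so the 7 and 6 are descriptions. The median signal of all peaks was 1.23 in mouse 1 and 1.45 in mouse 2, so most sites seen in 1 mouse were weak for their library.

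At the 18 shared Rora sites the median signal was 0.992 in mouse 1 and 1.72 in mouse 2, and 11 of the 18 were higher in mouse 2. The log2 ratio of mouse 2 over mouse 1 had a median of 0.44 and ranged from -0.93 at site 26 to 1.70 at the downstream promoter. Over all 46907 pairs of shared peaks the median was 0.75 ± 0.76 (SD over pairs), and 81.5% were higher in mouse 2. This ratio moved with base composition over all pairs: in 5 equal groups of pairs by GC content its median was 0.05, 0.30, 0.56, 0.94 and 1.42, from the lowest group to the highest. The part of GC content in the difference between the mice at single sites was not tested. Over the 18 Rora sites, which come from the same libraries, Spearman's rho of GC content with the ratio was 0.44, as a description. Some sites of low GC content had high ratios too, such as site 8, with 50% GC and a ratio of 1.69. The 2 shared promoter sites, with a median GC content of 69.7%, were both higher in mouse 2 (median log2 ratio 1.38), and 8 of the 15 intronic ones, with 50% GC, were (median 0.16). With the median of the same GC group subtracted, the median Rora ratio was 0.09, and that of the main downstream promoter peak was 0.28.

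**Figure D4:**
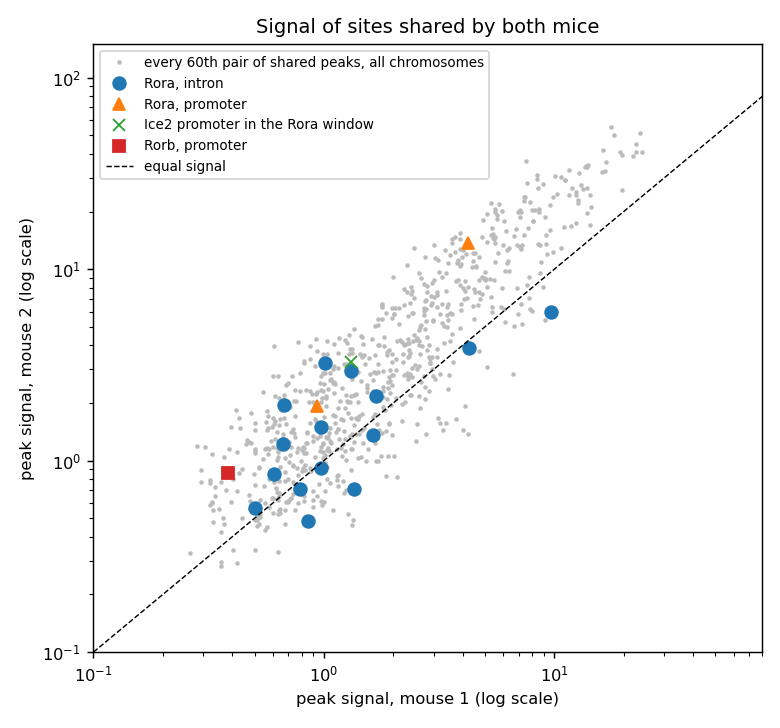
Peak signal in mouse 2 against mouse 1 on log axes for the shared Rora and Rorb sites, over grey points for every 60th of all shared pairs; the dashed line marks equal signal. The Rora promoter sites and the Rorb site lie above the line, and the intronic Rora sites lie on both sides of it, with the strongest one, at 9.7 and 5.94, below.

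Regions of cutting and footprints were also counted per unit length. Runs of cutting below an FDR of 0.05, joined where they touch, formed 91 regions in mouse 1 and 57 in mouse 2, which cover 15786 and 12709 bp. Per 100 kb this was 10.91 and 6.831 (8.868 ± 2.88), beside a median of 10.84 and 10.37 over all genes in the same mice, so Rora was close to the median in mouse 1 and below it in mouse 2. The median of the mean was 6.329 over the long genes. The Rora window held 124 and 102 footprints, 14.86 and 12.22 per 100 kb (13.54 ± 1.86). This was below the median of all genes in each mouse, 21.37 and 24.73, and the median of the mean over the long genes was 10.81. Mouse 1 had more Rora regions and footprints than mouse 2, although over the whole genome it had fewer, 175838 regions and 294945 footprints beside 187681 and 347542.

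Of the footprints inside Rora peaks of the same mouse, 41 of 83 in mouse 1 (49.4%) and 34 of 66 in mouse 2 (51.5%) overlapped one of the other mouse. Over all footprints inside peaks, 63.9% and 54.1% did. The sites differed in how many footprints they held. The Ice2 promoter, site 39 (chr9:69397801-69398460), had the most, 14 in mouse 1 and 8 in mouse 2, with a signal of 1.308 and 3.29. The downstream Rora promoter and site 14 followed in mouse 1 with 7 each. In mouse 2 site 11, chr9:69023401-69023640, also had 8, at a low signal of 0.4836, and it had 3 in mouse 1 at 0.8551.

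Only 1 of the 18 shared Rora sites held a ROR element in the 200 bp around its middle, by the letters ANTAGGTCA, TNTAGGTCA, ANTGGGTCA or TNTGGGTCA on either strand. Over all 46907 shared pairs, 2.13% held one, and over the RefSeq promoters 3.2%. The site is number 38, chr9:69368201-69368416, in intron 5, with a signal of 0.6701 in mouse 1 and 1.955 in mouse 2. The same 28 bases, chr9:69368254-69368281, were listed as a footprint in both mice and hold the whole element. The site is shown for this match, at positions 73 to 81 on the minus strand (plus strand shown).
Rora site 38: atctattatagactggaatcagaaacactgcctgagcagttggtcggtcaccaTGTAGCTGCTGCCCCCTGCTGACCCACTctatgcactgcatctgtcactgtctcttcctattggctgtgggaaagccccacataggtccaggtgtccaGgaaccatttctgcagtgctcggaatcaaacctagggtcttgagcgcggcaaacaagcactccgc
The same footprint holds, at positions 62 to 70, the reverse complement of AGGGGGCAG. These are core letters of the motif of CTCF, the protein that anchors chromatin loops, and this motif was added after the sequence was seen. Its letters occur in 2.23% of all shared pairs. With 2 motifs in 1 footprint the deposited positions do not say which protein, if either, protects it.

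Other motifs were counted in the 18 shared Rora sites in the same way. RUNX (TGTGGT) was in 4 of 18 (17.7% of all shared pairs) and ETS (GGAAGT) in 4 (23.1%). The GATA motif, spelled AGATAA, was in 3 (5.18%). TCF/LEF (CTTTGA) and the E-box CAGCTG were in 3 each (12.4% and 18.7%), as were Ikaros (TGGGAA; 15.6%) and SP/KLF (GGGCGG; 29.6%). The SP/KLF matches include site 39, the promoter of Ice2. The receptor core AGGTCA and AP-1 (TGANTCA) were in 2 each (9.43% and 5.07%). CTCF (CCANNAGGG), NRF1 (GCGCATGCG) and RFX (GTTGCCATG) were in none. RUNX, ETS and GATA proteins and TCF/LEF proteins act in thymocytes, and with 18 sites 1 match is worth 5.56 percentage points, so these shares are descriptions.

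The Rorb promoter at its first start, chr19:19111196, was weakly open in both mice. It serves the coding transcript Rorb-203. Its peak, chr19:19111181-19111380, had a signal of 0.3829 in mouse 1 and 0.8665 in mouse 2 (0.6247 ± 0.342), above 4.4% and 31.0% of the peaks of their library. The lowest FDR was 7.74e-05 and 3.56e-07. Both values are low for their library, and mouse 2 was the higher one, with a log2 ratio of 1.18. This site has 67.5% GC, and with the median of its GC group subtracted the ratio was -0.24, so even its direction depends on that step. The downstream Rorb promoter, chr19:19001117, which serves 4 other transcripts, had no peak, no run of cutting and no footprint in either mouse.

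The Rorb site held 4 footprints in mouse 1 and 5 in mouse 2, and 2 of each overlapped one of the other mouse. Over all footprints inside peaks, 63.9% and 54.1% did. The 250 bases before the start are shown because the only Rorb peak lies mostly in them (chr19:19111197-19111446, minus strand). The bases farthest from the start, the first ones shown, lie outside the peak.
Rorb first promoter: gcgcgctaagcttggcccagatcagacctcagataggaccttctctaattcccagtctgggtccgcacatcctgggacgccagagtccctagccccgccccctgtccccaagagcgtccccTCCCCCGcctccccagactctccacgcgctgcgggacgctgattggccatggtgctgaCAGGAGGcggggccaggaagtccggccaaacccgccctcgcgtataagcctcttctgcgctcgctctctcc
It holds 18 CpG, GGAAGT (ETS) at position 195, GGGCGG on the other strand (SP/KLF) at positions 95 and 211, and the reverse complement of TGGGAA (Ikaros) at position 49, outside the peak. None of these matches shares a base with the 14 bases that lay in footprints of both mice. In all RefSeq promoters the letters occur in 23.8% (ETS), 35.7% (SP/KLF) and 25.6% (Ikaros).

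Elsewhere in the Rorb window the stricter list had nothing. The longer, less strict list added 2 intervals in mouse 1, chr19:19042039-19042131 at 0.1659 and chr19:19079954-19080090 at 0.1851, and 1 in mouse 2, chr19:18980087-18980238 at 0.1562. None of the 3 was in the longer list of the other mouse, and the like share over all chromosomes was not counted. All 3 lie in introns, and their signals are below that of the weak promoter peak of the same library. The Rorb window held 4 regions of cutting in each mouse, 446 and 439 bp in all, and 4 and 6 footprints.

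Among 47 nuclear receptor genes, 28 had a promoter open in both mice, beside 56.5% of all genes, and the median density was 5.09 peaks per 100 kb (0 to 37). Rora ranked 28 by density and 4 by number of peaks. Rara, a retinoic acid receptor, had a mean of 54.5 peaks, Vdr, the vitamin D receptor, 31, Thra, a thyroid hormone receptor, 30, and Ppard, a lipid-sensing receptor, 27. The rank by number rests on the mean: with 31 peaks Rora came 2 in mouse 1, and with 27 it came 9 in mouse 2, so its place is not firm. Rorb ranked 41 by both means. Its rank by number is the middle of a tie with Rarb and Pgr, each with a mean of 1 peak. The 3 genes nearest to Rora in density, by the difference in log10 of the mean density plus 0.1, were Nr2e1 (3.288 ± 3.49), Rxrg (3.186 ± 1.5) and Hnf4a (4.214 ± 0.851). None of them had a promoter open in both mice, so the likeness is one of density alone. The 3 nearest to Rorb were Nr5a2 (0.2295 ± 0.325), Rarb (0.2048 ± 0.29) and Pgr (0.5925 ± 0.838), each with no peak in mouse 1.

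**Figure D5:**
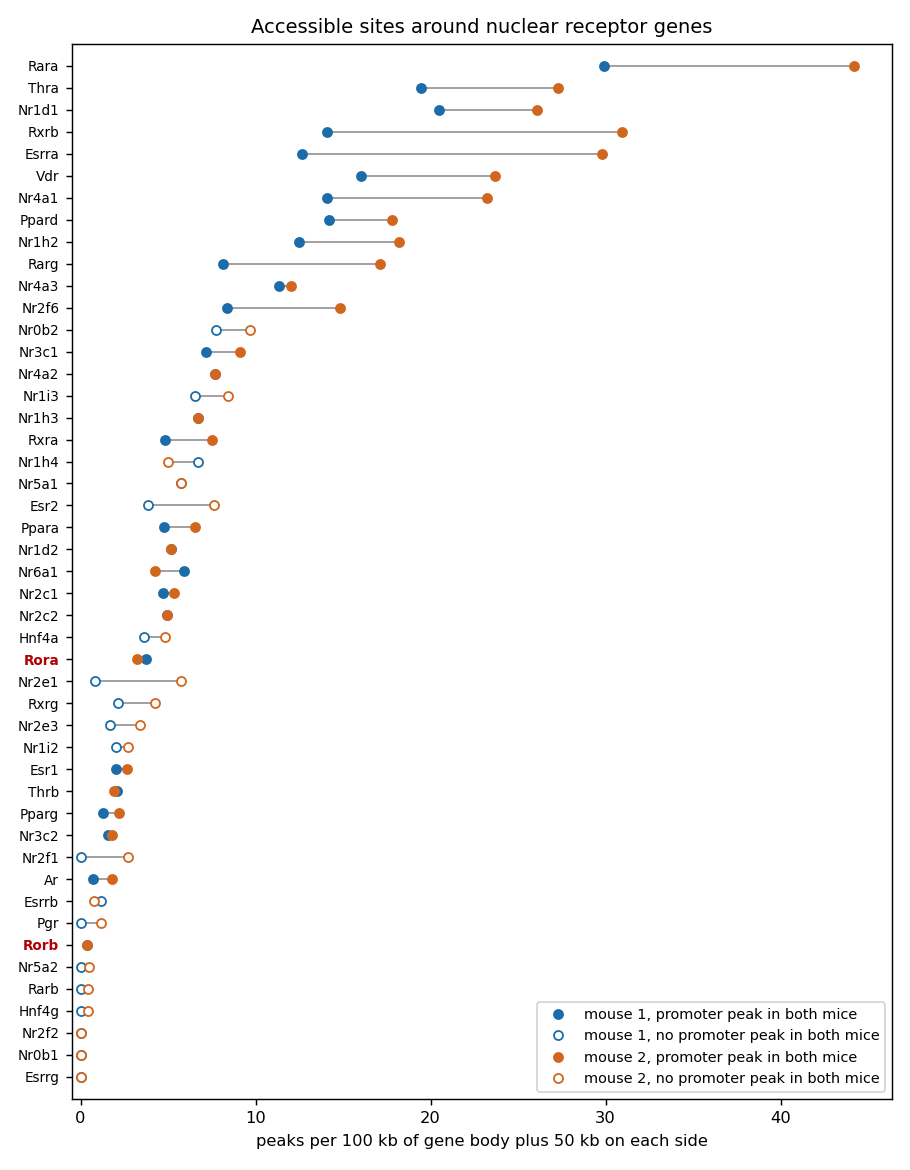
Peaks per 100 kb of gene body plus 50 kb on each side for 47 nuclear receptor genes in mouse 1 (blue) and mouse 2 (orange), ordered by their mean; filled points have a promoter peak in both mice. Rora, at 3.715 and 3.236, ranks 28 and Rorb, at 0.3564 in both mice, ranks 41.

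Most genes listed as acting with RORs had an open promoter in thymus. Of 20, 18 had a promoter open in both mice (56.5% of all genes did), with a median density of 6.61 peaks per 100 kb (4.541 over all genes). Both competitors were open: Nr1d1 had 22 and 28 peaks in its window and Nr1d2 had 7 and 7. The body of Nr1d1 is 7.4 kb of a window of 107.4 kb and overlaps Thra. Such counts and densities can thus include sites of neighbouring genes. Of 5 coactivators 4 were open, among them Ncoa1 (10 and 8 peaks), Ncoa2 (10 and 16) and the acetyltransferase gene Ep300 (8 and 10). The exception was Ppargc1a, a coactivator of energy metabolism, with 1 and 2 peaks and a promoter peak in mouse 2 only. All 4 corepressor genes were open, among them Nrip1 with 10 and 8 peaks and the deacetylase gene Hdac3 with 12 and 10.

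Of 8 clock genes listed, 7 were open. Arntl, the core activator and a known target of ROR elements, had 18 and 15 peaks, and Dbp, a clock output known to be driven through E-boxes, had 21 and 26. Bhlhe41, a clock repressor, was the exception, with 4 and 3 peaks in its window and none at its promoter. Bcl2l1, which encodes the survival protein Bcl-xL of thymocytes, had 38 and 27 peaks.

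Markers of cell types the tissue could hold were counted in the same way. All 10 thymocyte genes had a promoter open in both mice, beside 56.5% of all genes. So did 1 of 4 B cell genes (Pax5), 1 of 4 myeloid genes (Itgam) and 1 of 4 thymic epithelium genes (Epcam). Of 6 genes of innate lymphoid and IL-17-producing gamma-delta T cells, which are known to use Rora, 2 were open (Sox13 and Blk), and Il1rl1, Il23r, Il17a and Il5 had no promoter peak in either mouse. Of 4 genes of neurons, which are known to use Rorb, 1 was open in both mice (Rbfox3). Snap25 and Tubb3 had a promoter peak in mouse 2 only, and Syt1 in neither mouse. The part of these cells in the Rora and Rorb sites was not tested.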

How the data were processed

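Per the text deposited with the files, the authors derived peaks and cut rates from the filtered mm10 alignments of each library, and footprints from both. For the aligner, the callers and their thresholds, names were not given in the sources used here. The peak signal that the authors deposited is depth-normalised. Its scale is not named, but every value lies within 0.1 steps of a whole multiple of 0.00638 (mouse 1) or 0.00504 (mouse 2). The p-value column of the deposited cut-rate lists is an FDR, listed below 0.05. Footprint lists carry 1 constant value in another unit, so only positions were used. The shorter peak lists (59484 and 72913 peaks) were used, and the longer ones (93107 and 117361) were an alternative.

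Overlap was at least 1 bp. Signal ratios used pairs of peaks that overlap most. GC content came from GRCm38, in 5 groups of pairs. Each motif was searched on both strands of the GRCm38 sequence, so alleles of the wild-derived strain were not searched. Tools were Python 3.11.15, pandas 2.3.3, pysam 0.24.0, samtools 1.23.1 and bedtools 2.31.1. Peak counts were tested on simulated windows (200 of 200 recovered) and checked against bedtools for 21755 genes.

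The members, gene lists and motifs were chosen with earlier results of these data known. Named sites are the promoter peaks, the 5 strongest shared peaks away from promoters, the strongest peak of each mouse not found in the other, and those with most footprints. Site 38 was named for its motif, and sites 5, 7, 26, 35, 36 and 37 for their positions, after their values were seen. The 3 nearest receptors by density were named. One gene counted in a list is not reported by name. RefSeq promoter sequences (GRCm38) were matched for both genes, at 3 of their 6 promoters.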

Additional observations from a re-analysis of the deposited data

How the results depend on the processing

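Flanks of 10 kb, an overlap of 50%, and promoters of 500 or 2500 bp changed no call at Rora or Rorb, and both kept 1 promoter open in both mice. With the stronger 50% of peaks, the mean count was 9.5 for Rora and 0 for Rorb, and Rora minus Rorb was 1.14 peaks per 100 kb. With the longer list Rorb had 2.5 peaks and the difference was 4.26, and with the gene body alone Rorb had 0.5 and the difference was 3.47. Cut-rate regions fell to 39.5 for Rora and 2.5 for Rorb when runs within 100 bp were merged, and Rorb had 2.5 at an FDR of 0.01 and 1.5 at 0.001. Footprints inside peaks numbered 74.5 for Rora. Against the longer list of the other mouse, the Rora share, again of sites set over peaks, was 77.6% (mean of both mice). The share of all peaks against the longer lists was not counted, so this value has no background beside it. Without 1 mouse, open Rora promoters ranged from 1 to 2. They were 2 in mouse 2 alone (without mouse 1). Subtracting the GC group median gave a log2 ratio of 0.09 for Rora and turned that of Rorb to -0.24. The causes of these changes were not tested, except that stricter settings by construction keep fewer intervals. Leaving out peaks at promoters of other genes, an alternative chosen after seeing the data, left 27.5 Rora peaks and 1 Rorb peak. No paired analysis was possible because there is 1 group. Read depth is not given, so no counting error can be given for weak sites such as the Rorb promoter, at 60 and 172 signal steps.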
